A study of Mus musculus with 6 samples.

Results

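The genes described here were 6 signal transducers and activators of transcription (Stat2, Stat3, Stat4, Stat5a, Stat5b and Stat6) and 3 feedback inhibitors of the same pathway (Socs1, Socs3 and Cish). They were taken by symbol, with earlier results of these data known, and all 9 were found, each as 1 entry, among 23091 gene symbols. RNA came from mouse CD4 T cells grown under Th9 conditions, which steer helper T cells to make interleukin 9 (IL-9). Wild-type C57/Bl6j mice aged 7 weeks gave naive CD4 T cells from spleen and lymph nodes. All 6 groups were activated on plates coated for CD3 and CD28, with IL-4 at 20 ng/ml, TGFβ at 2 ng/ml and an antibody that blocks IFNγ. In 3 groups no IL-1β was given and in 3 groups IL-1β was given at 10 ng/ml. Each arm was sampled after 1 h, at day 3, and in vivo; for the last, CD45.2 cells cultured for 3 days were put into CD45.1 mice and sorted after 1 week. Each group was 1 library, so no difference between 2 libraries had a replicate check, and whether a library pooled several mice was not stated.

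Cytokine receptors carry Janus kinases (JAKs), which phosphorylate the receptor tail and then the STAT protein that docks there. The phosphorylated STAT pairs up, enters the nucleus and binds DNA. Socs1, Socs3 and Cish are themselves among the genes that active STATs switch on, and their proteins bind receptors or JAKs and damp further signalling. In T helper cells, STAT6 acts downstream of IL-4, STAT5a and STAT5b downstream of IL-2 and related cytokines, STAT3 downstream of IL-6, IL-10 and IL-21, STAT4 downstream of IL-12, and STAT2, joined to Irf9, downstream of type I interferon. RNA levels say nothing of how much of a STAT protein is phosphorylated.

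Values were FPKM, the fragments of a gene scaled to its transcript length and to its library, with a deposited lower and upper bound for each value. Library depth was unknown, and these bounds were the only error at hand. The 4 libraries of day 3 and in vivo were made from poly(A) RNA and had 7313 to 8154 genes at 5 FPKM or more. The 2 libraries of 1 h were made from rRNA-depleted RNA and had 631 and 765 such genes, with 41.3% (no IL-1β) and 24.7% (IL-1β) of all FPKM on the ribosomal RNA gene Rn45s. Of 10 T cell markers 9 were found, none of them at 0 in any library. Markers of stroma, endothelium and epithelium (11 genes, lung surfactant genes among them) summed to 2.76 to 29.6 FPKM in the 4 cultured libraries, with 3 to 10 of them at 0. They summed to 6503 FPKM in vivo without IL-1β, with 1 at 0, and to 16770 FPKM in vivo with it, with none at 0. Myeloid markers (11 found of 12) summed to 21.01 to 52.8 FPKM in culture, with 3 to 9 of them at 0, and to 899 and 2127 FPKM in vivo without and with IL-1β, with none at 0. Erythroid and platelet markers (6 genes) summed to 375 and 588 FPKM in vivo without and with IL-1β. B cell markers (5 genes) summed to 18.7 to 42.5 FPKM and NK and CD8 cell markers (6 genes) to 9.68 to 28.3 FPKM over the 6 libraries. The tissue from which the in vivo cells were sorted was not given in the sources used here.

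On the mm9 build, Stat5b (chr11:100642045-100711899), Stat5a (chr11:100720665-100746483) and Stat3 (chr11:100748124-100800825) lay side by side, with 8765 bases between Stat5b and Stat5a and 1640 bases between Stat5a and Stat3. Stat6 (chr10:127080042-127098043) and Stat2 (chr10:127707632-127729905) shared a chromosome. Stat4 lay at chr1:52065088-52164028, Socs1 at chr16:10783902-10785629, Socs3 at chr11:117827401-117830680 and Cish at chr9:107199020-107204292. Stat5a and Stat5b were the only pair of 36 whose transcripts shared stretches of 50 bases (15.84% of those of Stat5a and 11.77% of those of Stat5b), so how their fragments were divided was uncertain. In the annotation used, exons of Stat3 and Stat5a overlapped on opposite strands by 72 bases, those of Stat6 and Nab2 by 40 bases, and those of Cish and the antisense gene Gm17041 by 321 bases. Whether the authors' counting used strand was not given in the sources used here, so reads of such overlaps could not be told apart.

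Promoter windows of the 9 genes (250 bases before to 50 bases after the start, RefSeq, build GRCm38.p6, 12 windows) were searched on both strands for 3 spellings. These were TTCNNNGAA, the letters that most STAT pairs are known to bind, TTC and GAA with 4 bases between them, the wider spacing that STAT6 is known for, and a pair of GAAA with 2 bases between them, the letters known from interferon response elements. Of 32851 promoter windows in all, 8.3% held the first, 6.95% the second and 3.44% the third. The stretches below are those with a match, in capitals, written 5′ to 3′ on the gene's strand. Socs1 (chr16:10785537-10785786, minus strand) and Socs3 (chr11:117969367-117969616, minus strand), the 2 SOCS genes of the set, are shown for 250 bases up to the start.
Socs1: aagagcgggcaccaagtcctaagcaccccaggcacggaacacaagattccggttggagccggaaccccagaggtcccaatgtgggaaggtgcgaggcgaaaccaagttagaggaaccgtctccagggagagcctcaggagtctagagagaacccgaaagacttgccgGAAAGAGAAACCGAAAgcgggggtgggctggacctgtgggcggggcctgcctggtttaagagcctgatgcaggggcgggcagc
Socs3: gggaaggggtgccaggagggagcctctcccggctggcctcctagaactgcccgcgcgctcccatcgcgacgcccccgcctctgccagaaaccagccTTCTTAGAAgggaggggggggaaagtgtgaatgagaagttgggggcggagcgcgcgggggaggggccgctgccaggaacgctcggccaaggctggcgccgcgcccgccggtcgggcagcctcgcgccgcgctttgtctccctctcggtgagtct
The Cish stretch (chr9:107296649-107296678, plus strand) is shown for its pair of matches at the start. Those of Stat2 (chr10:128270263-128270312, plus strand) and Stat4 (chr1:52008120-52008169, plus strand, the second of its 2 starts) are shown for the interferon type match that each holds.
Cish: ccgcccagttTTCCTGGAAagTTCTTGGAA
Stat2: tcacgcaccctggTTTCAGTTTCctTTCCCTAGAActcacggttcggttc
Stat4: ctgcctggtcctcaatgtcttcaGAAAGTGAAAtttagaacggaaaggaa

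Cish held 2 matches to TTCNNNGAA, at bases 1 to 9 and 12 to 20 counted from the start, and 0.457% of all windows held 2 or more. Socs3 held 1, from base -154 to -146. Socs1 held 2 overlapping matches to the GAAA pair, from base -83 to -74 and from -77 to -68, and 0.225% of all windows held 2 or more. Stat2 held the GAAA pair on the reverse strand from base -222 to -213 and the wider STAT6 spacing from -210 to -201, and Stat4 held the GAAA pair from -97 to -88. In the windows of Stat3, Stat5a, Stat5b and Stat6 none of the 3 spellings was found. Such matches are letters in a window, and no binding was measured.

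**Figure D1:**
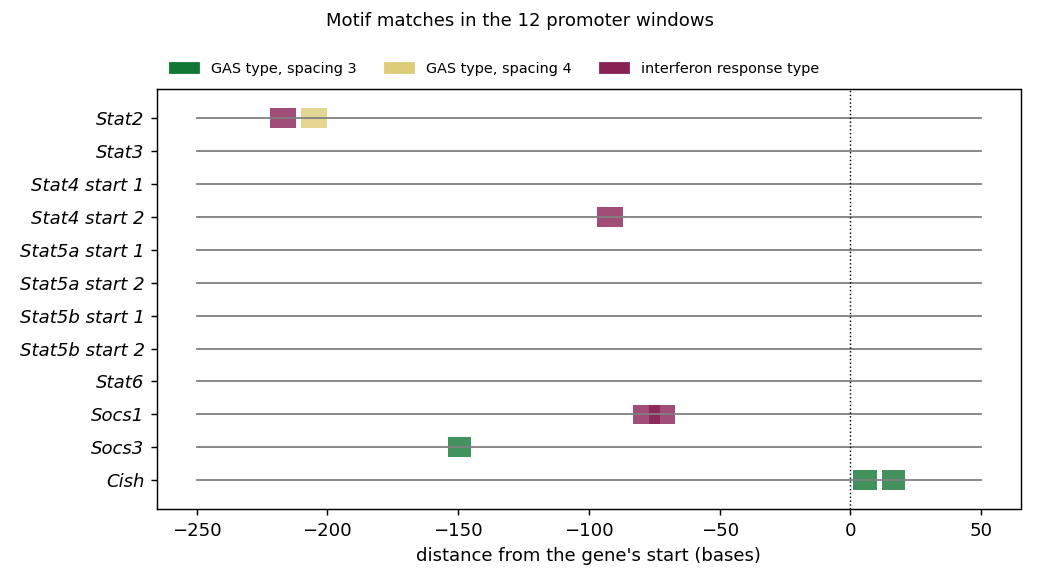
Positions of motif matches in the 12 promoter windows, in bases from the gene's start (dotted line), with 1 row per start site. Coloured bars are matches; the 3 feedback genes, Stat2 and the second start of Stat4 hold at least 1, and the other STAT windows hold none.

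Socs1 and Cish, both feedback inhibitors, were the most abundant of the 9 transcripts in every poly(A) library. Socs1, which binds JAKs and blocks their activity, stood at 355 and 339 FPKM at day 3 without and with IL-1β, and at 392 and 281 FPKM in vivo without and with it. Cish, an inhibitor of IL-2 receptor signalling, stood at 299 and 252 FPKM at day 3 and at 249 and 225 FPKM in vivo, in the same order. Socs3, which blocks signalling by gp130 receptors such as that of IL-6, stood at 41.2 and 35.8 FPKM at day 3 and at 57.4 and 89.7 FPKM in vivo. The 3 feedback genes together made 74.6% and 77.9% of the summed FPKM of the 9 genes at day 3, and 73.8% and 67.5% in vivo. Each deposited Socs1 value in these 4 libraries lay above its own upper bound, so its interval is not centred on its level.

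Among the STATs, Stat3, Stat5a, Stat5b and Stat6 lay highest in each of the 4 poly(A) libraries, Stat4 lay below them and Stat2 lowest. The Stat4 interval lay below those of all these higher STATs at day 3 without IL-1β (23.0 to 33.5) and in vivo with it (25.6 to 38.6). Stat3 measured 50.1 and 44.4 FPKM at day 3 without and with IL-1β, and 54.6 and 66.8 FPKM in vivo. Stat5a measured 50.8 and 38.9 FPKM at day 3 and 47.6 and 57.4 FPKM in vivo. Stat5b measured 45.3 and 31.5 FPKM at day 3 and 48.6 and 49.0 FPKM in vivo. In all 3, the lowest of the 4 poly(A) values was that of day 3 with IL-1β. Stat6, the STAT of the IL-4 receptor, measured 47.9 and 30.1 FPKM at day 3 and 40.3 and 58.3 FPKM in vivo. Stat4 measured 28.4 and 21.8 FPKM at day 3 and 37.4 and 32.5 FPKM in vivo. Stat2 measured 13.8 and 11.4 FPKM at day 3 and 20.0 and 22.4 FPKM in vivo. Stat6, Stat4 and Stat2 were likewise lowest at day 3 with IL-1β.

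In order of level, Socs1 and Cish led, the next 6 genes followed, and Stat2 came last in each of the 4 poly(A) libraries. At day 3 without IL-1β the intervals of Socs1 and Cish overlapped, and those of Cish and the next gene, Stat5a, did not. From Stat5a down through Stat3, Stat6, Stat5b, Socs3 and Stat4 each interval overlapped the next, and Stat2 was set apart below. At day 3 with IL-1β and in vivo without it, Socs1 was also apart from Cish, and Stat2 again apart from Stat4. In vivo with IL-1β, Socs3 was apart from Cish above it and from Stat3 below it, Stat5b was apart from Stat4, and the intervals of Stat4 and Stat2 overlapped. The ratio of Socs1 to Socs3 FPKM was 8.63 and 9.46 at day 3 without and with IL-1β, 6.83 in vivo without it and 3.13 in vivo with it. The ratio of Stat5a to Stat5b stayed between 0.979 and 1.23 in the 4 poly(A) libraries.

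**Figure D2:**
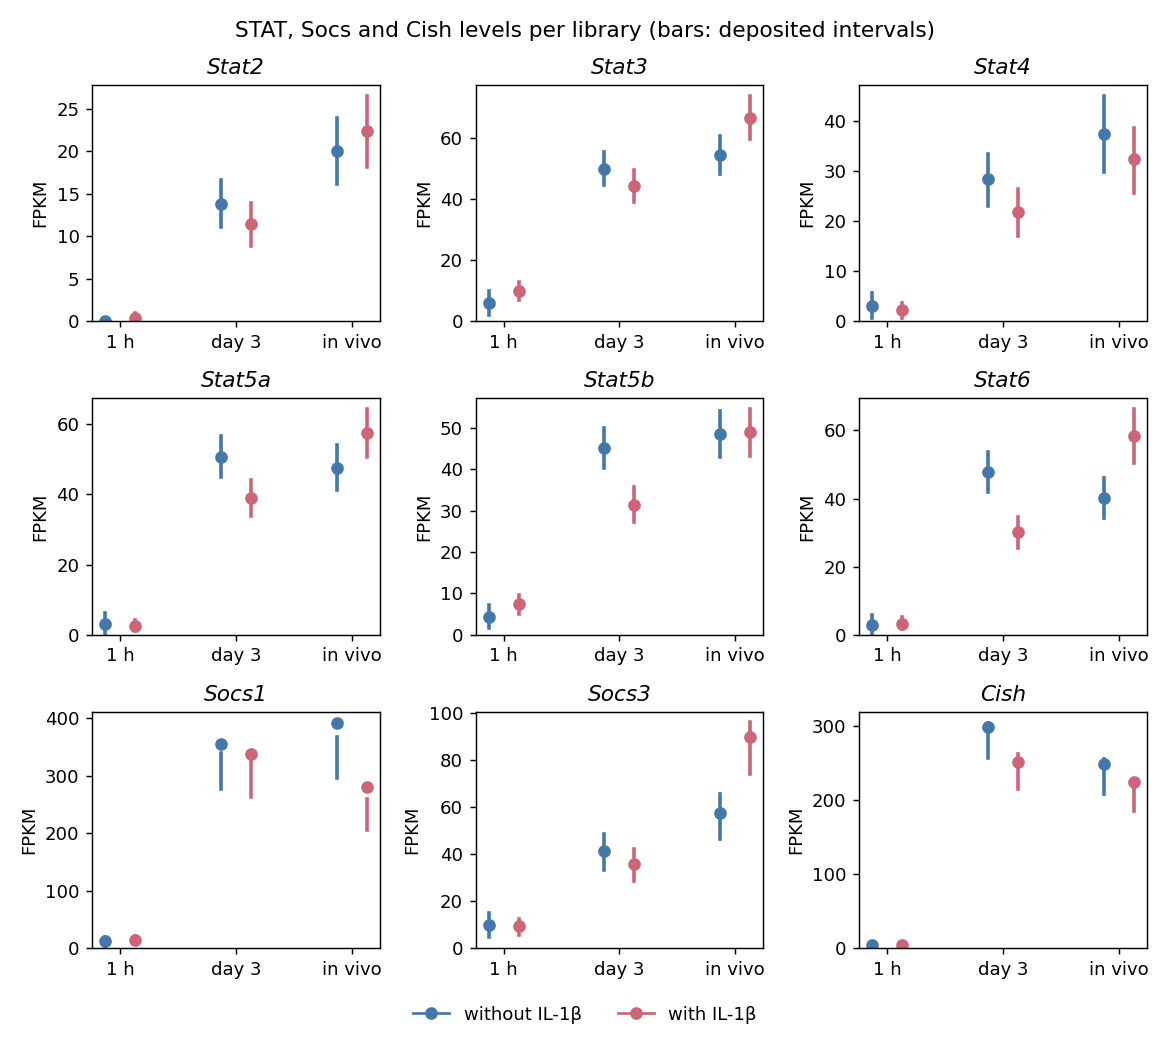
FPKM of each gene (vertical axis, linear, own scale per gene) at 1 h, day 3 and in vivo, without IL-1β (blue) and with it (red); points are deposited values and bars deposited intervals, 1 library per point. Socs1 points lie above their bars in the poly(A) libraries, and Socs3 is highest in vivo with IL-1β at 89.7 FPKM.

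IL-1β against no IL-1β at day 3 compared the arms at the end of culture. A gene was counted when its FPKM + 1 differed at least 2-fold, its larger FPKM was at least 5 and its 2 deposited intervals did not overlap. None of the 9 was counted (0 of 9), against 3.44% of 7962 genes tested in either direction. The 9 log2 ratios of FPKM + 1 were all below 0, as were 53.3% of all tested genes, with a median of -0.26 against -0.05 over all tested genes. For 3 STATs the intervals did not overlap, all lower with IL-1β, a state met by 12.7% of tested genes in that direction.

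Stat6 differed most, with 30.1 FPKM (25.5 to 34.6) with IL-1β against 47.9 FPKM (42.1 to 53.7) without it, which was 1.57-fold lower on the FPKM + 1 scale. Stat5b had 31.5 FPKM (27.2 to 35.8) against 45.3 FPKM (40.5 to 50.2), a log2 ratio of -0.51. Stat5a had 38.9 FPKM (33.7 to 44.1) against 50.8 FPKM (44.9 to 56.5), a log2 ratio of -0.38. For Stat2, Stat3, Stat4 and the 3 feedback genes the intervals of both libraries overlapped, with log2 ratios from -0.37 (Stat4) to -0.07 (Socs1). Across 7240 genes, which share the same 2 libraries, longer transcripts had lower log2 ratios (Spearman's rho -0.58). The longest transcript of each of the 9 genes has 2552 (Socs3) to 6042 bases (Stat3). With that length trend removed, Stat6 kept a log2 ratio of -0.45 and intervals that did not overlap. Those of Stat5b (-0.14) and Stat5a (-0.16) then overlapped, and the ratios of Stat3 (0.26) and Stat2 (0.01) were above 0.

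The same comparison in vivo set cells that had met IL-1β in culture, 1 week after injection, against cells that had not. Again 0 of 9 genes met the 2-fold rule, against 9.71% of 8639 genes tested in either direction. Intervals that did not overlap were found for Socs3 and Stat6, both higher after IL-1β (9.91% of tested genes were apart upward), and for Socs1, lower (8.33% apart downward). Fewer cells of a type and less RNA per cell cannot be told apart in these bulk samples.

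Socs3 had 89.7 FPKM (74.0 to 96.1) after IL-1β against 57.4 FPKM (46.4 to 65.8) without it, a 1.55-fold difference on the FPKM + 1 scale. Stat6 had 58.3 FPKM (50.3 to 66.2) against 40.3 FPKM (34.3 to 46.0), a 1.44-fold difference. Socs1 had 281 FPKM (205 to 260) against 392 FPKM (295 to 368), which was 1.40-fold lower. The 2 SOCS genes thus stood on opposite sides of 0, with log2 ratios of 0.63 and -0.48. The other 6 genes lay between log2 ratios of -0.20 (Stat4) and 0.29 (Stat3), with Stat5b at 0.01 and Cish at -0.15. With the length trend removed the ratios were 0.62 for Socs3, 0.50 for Stat6 and -0.50 for Socs1, with intervals still apart.

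Marker genes of other cells differed in the same pair of libraries. Of 10 tested stroma, endothelium and epithelium markers 9 met the 2-fold rule upward after IL-1β, as did 2 of 8 myeloid markers and 6.23% of all tested genes. The T cell markers summed to 2144 FPKM with IL-1β and 2290 FPKM without it, and 0 of 9 met the rule. The endothelial marker Pecam1, which T cells also express, had 34.5 FPKM with IL-1β and 21.3 FPKM without it, and was 1 of the 3 genes whose pattern over the 6 libraries was most like that of Socs3. The part of these cells in the Socs3, Stat6 and Socs1 ratios was not tested.

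Stat6 was the 1 gene of the 9 with intervals apart in both poly(A) pairs, and its directions were opposite: lower with IL-1β at day 3 (log2 ratio -0.65) and higher in vivo (0.52). The difference between both ratios was 1.18 on the log2 scale and was not tested, since each rests on 1 library per arm. Of 7700 genes compared in both pairs, 136 (1.77%) had intervals apart in opposite directions.

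**Figure D3:**
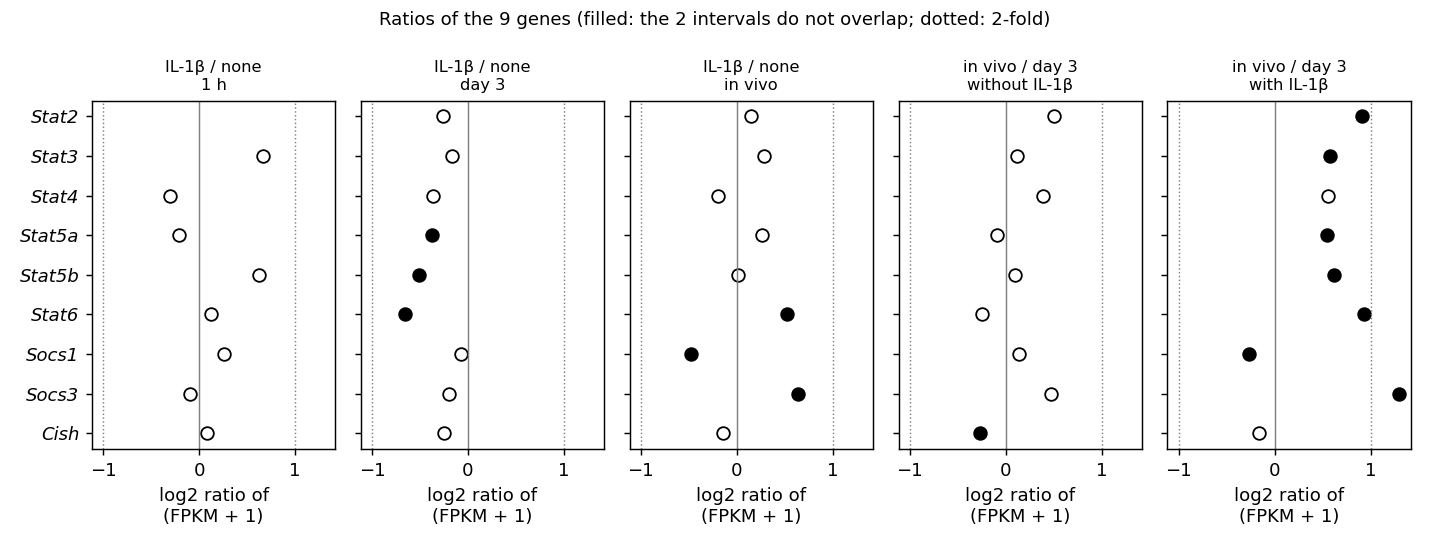
Log2 ratios of FPKM + 1 for the 9 genes in 5 comparisons, 1 panel each; filled points have intervals that do not overlap, and dotted lines mark 2-fold. At day 3 every point lies left of 0, in vivo Socs1 and Socs3 lie on opposite sides, and Socs3 passes 2-fold from day 3 to in vivo with IL-1β; Stat2 at 1 h is not drawn, since 1 of its 2 values is listed at 0.

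Setting in vivo against day 3 within each arm compared the cells before and after transfer. Without IL-1β, 0 of 9 genes met the 2-fold rule, against 2.79% of 8126 genes tested. Log2 ratios ran from -0.26 (Cish) to 0.50 (Stat2), with Socs3 at 0.47 and Stat4 at 0.39. Of the 9 genes, Cish had intervals apart, with 249 FPKM (209 to 256) in vivo and 299 FPKM (258 to 305) at day 3, and 3.51% of tested genes were apart downward. With the median ratio scaled to 1 or the length trend removed, its intervals overlapped, and with the length trend removed those of Socs3 (log2 ratio 0.54) did not. Of the markers of other cells, 5 of 6 tested stroma, endothelium and epithelium genes and 6 of 7 tested myeloid genes met the rule upward in this pair, and their part was not tested.

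With IL-1β, Socs3 met the 2-fold rule upward (1 of 9 genes, against 12.0% of 8572 genes tested). It had 89.7 FPKM in vivo (74.0 to 96.1) and 35.8 FPKM at day 3 (28.7 to 42.1), a 2.46-fold difference on the FPKM + 1 scale. Stat2, Stat3, Stat5a, Stat5b and Stat6 had higher values in vivo with intervals apart but below 2-fold, which with Socs3 made 6 of 9 genes, against 20.8% of tested genes. Among the STATs, Stat6 (30.1 FPKM at day 3, 58.3 FPKM in vivo, log2 ratio 0.93) and Stat2 (11.4 and 22.4 FPKM, 0.91) differed most. Stat3, Stat5a and Stat5b had log2 ratios of 0.58, 0.55 and 0.62, and Stat4, at 0.55, had overlapping intervals. Socs1 was apart downward (log2 ratio -0.27, with 14.1% of tested genes apart downward) and Cish had overlapping intervals (-0.16). Socs1 had 281 FPKM in vivo (205 to 260) and 339 FPKM at day 3 (264 to 328). Both Socs1 values lay above their own upper bounds, and that in vivo lay inside the day 3 interval. With the median ratio scaled to 1 the intervals of Socs1 overlapped and those of Stat4 did not. The median log2 ratio of the 9 genes was 0.58, against 0.04 over all tested genes.

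Longer transcripts had higher ratios in this pair (Spearman's rho 0.36 across 7814 genes that share both libraries). With that trend removed, Socs3 still met the rule (log2 ratio 1.37), Stat2 (0.67), Stat6 (0.77) and Stat5a (0.37) were still apart, and the intervals of Stat3 (0.15) and Stat5b (0.28) overlapped. The same libraries differed in other cells' markers: 10 of 10 tested stroma, endothelium and epithelium markers and 8 of 8 tested myeloid markers met the rule upward, and their part in these ratios was not tested. The 2 arms' ratios differed most for Stat6 (1.18 larger with IL-1β, the same double difference as above), Socs3 (0.83) and Stat5a (0.64). For Socs1 the ratio was smaller with IL-1β, by -0.41. These differences between arms were not tested.

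Over both arms, limma on log2 of FPKM + 1 gave a change from day 3 to in vivo of 0.89 (SE 0.39) for Socs3, with a Benjamini-Hochberg adjusted p of 0.658. Stat2 had 0.71 (SE 0.38, limma adjusted p 0.804), and the other 7 genes had adjusted p between 0.917 and 0.993. None of the 9 was called, against 2.17% of 8946 genes called higher and 0.0894% called lower. For IL-1β across all 3 stages the limma changes ran from -0.29 (Stat4) to 0.26 (Stat3), with adjusted p from 0.940 to 0.999. No gene at all was called in that limma contrast (0.0% of 8946), while 320 genes had an unadjusted p under 0.05, none of them among the 9. With 2 residual degrees of freedom, a p that misses the threshold does not show that the arms were alike.

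At 1 h, near the start of activation, all 9 transcripts were low on the FPKM scale and had wide intervals. Socs1 had 12.0 FPKM (3.51 to 19.3) without IL-1β and 14.6 FPKM (8.29 to 21.1) with it. Socs3 had 9.98 and 9.27 FPKM, Stat3 5.92 and 9.96 FPKM, Stat5b 4.40 and 7.33 FPKM, and Cish 4.26 and 4.56 FPKM. Stat5a (3.15 and 2.58 FPKM), Stat4 (3.03 and 2.27 FPKM) and Stat6 (2.93 and 3.27 FPKM) lay below 5 FPKM in both arms, as did Cish. Stat2 was listed at 0 without IL-1β and at 0.433 FPKM (0 to 1.05) with it. Every interval overlapped that of the next gene in order of level, so neighbours in that order were not set apart at 1 h.

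Stat3, Stat5b, Socs1 and Socs3 reached 5 FPKM in at least 1 arm at 1 h and could be tested. None of the 4 met the 2-fold rule and none had intervals apart, against 7.93% of 933 tested genes that met the rule and 9.22% with intervals apart, in either direction. Their log2 ratios for IL-1β were 0.66 for Stat3, 0.62 for Stat5b, 0.26 for Socs1 and -0.10 for Socs3, and the median over all 933 tested genes was 0.30. Scaling the median ratio to 1 moved this pair of libraries by 0.21 on the log2 scale.

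From 1 h to day 3 all 9 genes met the 2-fold rule upward in both arms, as did 95.7% of 7689 tested genes without IL-1β and 95.5% of 7392 with it. Stage and RNA selection (rRNA-depleted at 1 h, poly(A) at day 3) cannot be told apart here, and the median gene, among those with at least 5 FPKM in both libraries, shifted by 3.46 and 3.32 on the log2 scale without and with IL-1β. The genes are given here relative to that shift. On this relative scale Cish stood 2.42 above the median gene without IL-1β and 2.24 with it, and Socs1 stood 1.35 and 1.16 above it. Socs3 stood at -1.21 and -1.16, below it. With the median scaled to 1, all 3 feedback genes met the 2-fold rule in both arms, Socs3 in the downward direction. With equal upper quartiles instead, Socs3 without IL-1β had -0.98 and did not meet the rule. Of the genes that still reached 5 FPKM with the median scaled to 1, 50.5% of 1539 met it upward and 7.34% downward without IL-1β, and 57.4% of 1858 upward and 11.2% downward with it. Stat3 (-1.01) and Stat5b (-1.003) met it downward with IL-1β, and without IL-1β their relative values were -0.32 and -0.08 with overlapping intervals. Without IL-1β, Stat5b lay below 5 FPKM in both libraries after scaling and was not tested, so the filter also differed between the arms. Where tested, Cish reached 5 FPKM at day 3 alone, and Socs3, Stat3 and Stat5b at 1 h alone. Cish could therefore be counted upward only, and the others downward only. Longer transcripts had lower ratios in the pair with IL-1β (Spearman's rho -0.48 across 6737 genes that share both libraries). They did so too in the pair without it (Spearman's rho -0.38 across 7009 genes). Stat3 and Stat5b have the longest transcripts of the 9 (6042 and 5213 bases). With the length trend removed their values with IL-1β were -0.24 and -0.42, with overlapping intervals. With the median scaled to 1, Stat4, Stat5a and Stat6 had values between -0.17 and 0.45 in both arms. They then lay below 5 FPKM in both libraries of each arm, so they were not tested and could not meet the rule. Stat2, listed at 0 at 1 h without IL-1β, is given no fold there.

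In the limma fit all 9 genes were called higher at day 3 than at 1 h, as were 91.3% of 8946 genes. With log2 values shifted to equal medians in every library, 14.8% of genes were called higher and 25.7% lower. Cish (2.26, SE 0.35, limma adjusted p 0.00287) and Socs1 (1.20, SE 0.38, adjusted p 0.0364) were then higher and Socs3 (-1.52, SE 0.38, adjusted p 0.0161) lower. None of the 6 STATs was called in that fit, Stat3 coming nearest (-0.95, limma adjusted p 0.0732). The ratio of Cish to Socs3 FPKM, taken within one library, was 0.427 and 0.492 at 1 h without and with IL-1β and 7.27 and 7.04 at day 3. That of Socs1 to Socs3 was 1.20 and 1.57 at 1 h, against the 8.63 and 9.46 given above for day 3. In sum, the erythroid and platelet markers moved against the common shift. They had 217 and 234 FPKM at 1 h without and with IL-1β, and 7.77 and 19.4 FPKM at day 3. Their main part at 1 h was the haemoglobin gene Hba-a1, at 215 and 232 FPKM. At day 3 it was listed at 0 without IL-1β and at 1.69 FPKM with it. The platelet genes Pf4 and Ppbp went the other way, both listed at 0 at 1 h in both arms. At day 3 without and with IL-1β, Pf4 had 4.30 and 15.6 FPKM and Ppbp 3.15 and 2.07 FPKM. Pf4 met the rule upward with IL-1β. The B cell marker Ms4a1 (5.29 FPKM at 1 h, 0.327 FPKM at day 3) and the myeloid list's H2-Aa (27.9 and 9.77 FPKM) met the rule downward with IL-1β. The part of these cells, and how far a value depends on the RNA selection, was not tested.

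**Figure D4:**
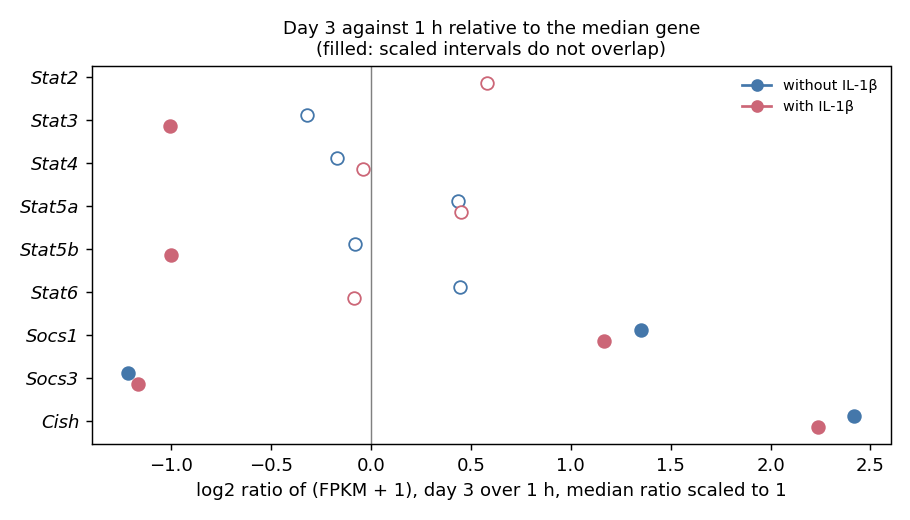
Log2 ratio of FPKM + 1, day 3 over 1 h, after scaling the libraries so that the median ratio is 1 (zero line), without IL-1β (blue) and with it (red); filled points have scaled intervals that do not overlap. Cish and Socs1 lie above 1 in both arms and Socs3 below -1; Stat2 without IL-1β is not drawn, since it is listed at 0 at 1 h.

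The kinases and receptors that feed the STATs were read from lists by the same rule. At day 3 longer transcripts had lower IL-1β ratios, as given above (Spearman's rho -0.58). That trend was not removed from the ratios of the pathway lists, and its part in them was not tested. The 4 JAKs were all tested at day 3 and in vivo, and 0 of 4 met the 2-fold rule for IL-1β in either. Over all tested genes 3.44% met it at day 3 and 9.71% in vivo, in either direction. The median log2 ratio of the JAKs was -0.52 at day 3 and -0.26 in vivo. Jak3, the kinase of the common gamma chain, had 77.3 FPKM with IL-1β and 119.7 FPKM without it at day 3, and 96.6 and 155 FPKM in vivo. Jak2 had 63.7 and 98.0 FPKM in vivo, and Tyk2, a kinase of interferon and IL-12 receptors, had 7.51 and 13.8 FPKM at day 3. The other kinases in vivo were higher with IL-1β, Jak1 at 76.3 against 71.2 FPKM and Tyk2 at 19.5 against 17.2 FPKM, so 2 of the 4 log2 ratios there lay above 0 and 2 below. At day 3 the intervals of all 4 JAKs were apart, lower with IL-1β, as for 12.7% of tested genes. In vivo those of Jak2 and Jak3 were apart downward, as for 8.33% of tested genes, and those of Jak1 and Tyk2 overlapped.

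Of 19 receptor genes 17 were tested at day 3, and 2 met the rule, both lower with IL-1β, against 3.44% of all tested genes in either direction. Il6st, which encodes the gp130 chain used by IL-6, had 3.93 FPKM with IL-1β and 11.04 FPKM without it, and Il12rb2, a chain of the IL-12 receptor, had 9.71 and 24.9 FPKM. In vivo 1 of 17 met the rule, against 9.71% of all tested genes: Ifngr1, a chain of the IFNγ receptor, was higher with IL-1β at 138 against 62.5 FPKM. Il12rb2 had 15.8 against 31.7 FPKM there, and Il4ra, the IL-4 receptor chain upstream of STAT6, had 141 against 238 FPKM. The median log2 ratio of the receptors was -0.28 at day 3 and 0.10 in vivo. At 1 h, 6 receptors were tested and 0 met the rule, against 7.93% of all tested genes.

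Among 15 cytokines that signal through STATs, 10 were tested at day 3 and 1 met the rule (3.44% of all tested genes did, in either direction). It was Il9, with 274 FPKM after IL-1β against 39.8 FPKM (log2 ratio 2.76). In vivo 5 of 11 met it upward, against 6.23% of all tested genes: Ifng (86.3 against 11.4 FPKM), Il10 (23.1 against 3.24 FPKM), Csf2 (26.8 against 6.08 FPKM), Il5 (39.0 against 16.6 FPKM) and Il3, at 12.4 FPKM with IL-1β and listed at 0 without it. Il9 did not, at 49.6 and 59.5 FPKM. The median log2 ratio of the list was 0.85 at day 3 and 0.995 in vivo, with the length trend of the day 3 pair not removed. The stroma and myeloid markers given above were higher in the same library in vivo, and their part was not tested.

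Other brakes on the pathway did not meet the rule for IL-1β at day 3 or in vivo. Over all tested genes 3.44% and 9.71% met it there in either direction, and with so few genes a count of 0 lies near these shares. Of the other SOCS and PIAS genes 0 of 6 met the rule at day 3 and 0 of 7 in vivo, with medians of -0.17 and -0.35. Socs2, which restrains growth hormone receptor signalling, had 41.2 FPKM with IL-1β and 65.3 FPKM without it in vivo, and Pias2 had 8.24 and 16.2 FPKM at day 3. Of the 4 phosphatases 0 met it at day 3 or in vivo. Ptpn1 had 52.2 and 82.6 FPKM in vivo, and Ptpn2 and Ptpn11 had log2 ratios of 0.71 and -0.71 at day 3.

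Genes known as STAT targets were counted under the STAT that their list is named for. Some also stand in another list, and which factor drove them in these cells was not tested. Of the STAT2 and Irf9 targets 5 of 7 tested met the rule upward in vivo after IL-1β (6.23% of all tested genes did), with a median log2 ratio of 1.71 against 0.03 over all tested genes. These were Irf9 itself (40.1 against 17.1 FPKM), Irf7 (31.5 against 5.13 FPKM) and the interferon-induced genes Ifit1, Ifit3 and Oasl2 (log2 ratios 2.26, 2.70 and 1.71), while Stat2 had 22.4 and 20.0 FPKM with overlapping intervals. Of the STAT3 targets 3 of 5 met it, namely Fos (142 against 30.3 FPKM), Junb (703 against 296 FPKM) and Maf (9.77 against 2.85 FPKM), with a median of 1.24. These lists differed in the same libraries as the stroma and myeloid markers above, and the part of those cells was not tested.

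In vivo 9.71% of all tested genes met the rule in either direction. Of the STAT4 targets 1 of 5 met it there, Ifng, which also stands in the cytokine list (median 0.70). Of the STAT6 targets 1 of 7 did, the chemokine gene Ccl22 (143 and 61.6 FPKM), with -0.26 as the median of the 7. Gata3, a transcription factor of type 2 helper cells, had 125 against 209.6 FPKM there. Of the STAT5 targets 0 of 7 met it in vivo (median -0.07), with Il2ra at 276 against 377 FPKM. At day 3 the rule was met by 0 of 3 STAT2 and Irf9 targets, 0 of 4 STAT3 targets, 1 of 3 STAT4 targets (Il12rb2, lower), 0 of 7 STAT5 targets and 1 of 7 STAT6 targets (Il9, higher). Over all tested genes 3.44% met it at day 3 in either direction, so 0 or 1 of so few genes says little about a list. No gene of the 10 pathway lists met the rule for IL-1β at 1 h, where few of them reached 5 FPKM, against 7.93% of all tested genes.

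**Figure D5:**
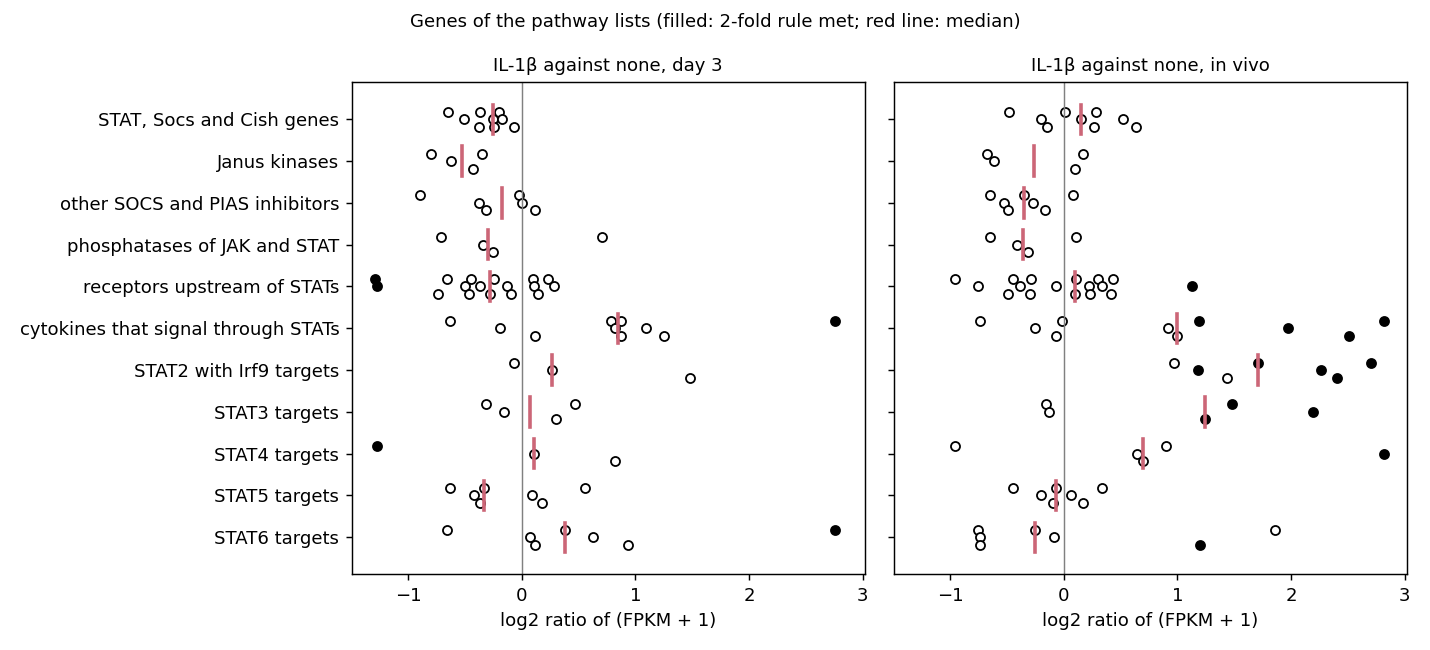
Log2 ratios of FPKM + 1, with IL-1β over without it, for tested genes of the STAT, Socs and Cish set and of 10 pathway lists, at day 3 (left) and in vivo (right); filled points met the 2-fold rule and red lines are list medians. The 9 genes stay within 2-fold in both panels, and the STAT2 with Irf9 targets have a median of 1.71 in vivo; Il3, listed at 0 without IL-1β in vivo, counts in its median but is not drawn. No ratio drawn here is corrected for transcript length.

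From day 3 to in vivo with IL-1β, the genes of these lists that met the rule upward were Tyk2 (7.51 and 19.5 FPKM), Il6st (3.93 and 15.5 FPKM), Ifngr1, Irf7, Ifit1, Ifit3, Oasl2, Fos, Junb, Maf and Il18r1. Those that met it downward were Socs2 (90.0 and 41.2 FPKM), Ptpn2 (86.3 and 40.6 FPKM) and Il9 (274 and 49.6 FPKM). Without IL-1β, Fos (5.84 and 30.3 FPKM) met it upward and Ifng (44.0 and 11.4 FPKM) downward, and no other gene of these lists met it. Of the STAT5 targets 0 of 7 met it in either arm. Over all tested genes 2.79% met it in either direction without IL-1β, and 12.0% upward with it. These comparisons share the in vivo and day 3 libraries with the IL-1β comparisons above. The length trend of the pair with IL-1β (Spearman's rho 0.36) was not removed from these ratios.

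Likeness of pattern was measured as the root mean square difference of log2 of FPKM + 1, centred per gene, over the 6 libraries and 8946 genes. Within the set, Stat3 and Stat5b were each other's nearest at 0.13, Stat5a and Stat6 at 0.19, and Socs1 and Cish at 0.48. Socs3 lay nearest to Stat3, at 0.36, and not to another feedback gene. Outside the set, genes among the 3 nearest were Ndst2, Stk4 and Zdhhc13 for Stat3, Dhx38, Ndel1 and Klhl17 for Stat5b, and Skiv2l and Rbm5 for Stat5a, at 0.06 to 0.09. For Stat6 they were Ap3b1, Sik3 and Gys1, for Stat4 Patl1, Nsg2 and Zfp628, and for Stat2 Fbrs and Itpk1, at 0.08 to 0.12. For Socs1 they were Tbrg1, Eri3 and Nudt14, for Socs3 Zfyve21, Pecam1 and Ramp1, and for Cish Ddost and 2810422J05Rik, at 0.07 to 0.11. The 6 libraries share a large common shift between 1 h and day 3, which enters each of these distances.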

How the data were processed

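Per the labels, RNA of the 1 h libraries was rRNA-depleted and that of the other 4 poly(A)-selected, and sequencing was on a MiSeq. The submitters' processing notes name TopHat and mm9. Not given in the sources used here: which tool made the gene values, the level of its intervals and its use of strand. The authors deposited FPKM per gene and a lower and upper bound beside each, per the file headers. Each file has 23700 entries, of which 285 with a status other than OK were left out, and entries sharing a symbol were summed. Coordinates are those of the files, with starts counted from 1.

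The size rule (2-fold on FPKM + 1, at least 5 FPKM, intervals apart) was applied to all genes and carries no p-value. The count of intervals apart at any fold was added after seeing the data. Tests used limma (version 3.58.1, R 4.3.3), with stage and arm as terms and log2 of FPKM + 1 as the response, over genes with at least 5 FPKM in 1 library, with Benjamini-Hochberg adjustment over all of them at 0.05; the script was tested on simulated data. The fit takes the stages as repeats of the IL-1β contrast and the arms as repeats of the stage contrasts. Transcript lengths came from GENCODE M21 (longest transcript), and a lowess fit (fraction 0.3) of log2 ratio on length gave the length trend; taking it out also removes the overall shift. Promoters came from RefSeq (GRCm38.p6), matched by symbol for 9 of 9 genes. All else was done in Python 3.11.15, pandas 2.3.3, numpy 2.4.6 and statsmodels 0.14.6.

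The 9 genes, the 10 pathway lists and the 6 marker lists were chosen with earlier results of these data known. Named were all 9 genes, of each pathway list the genes counted in an IL-1β or in vivo comparison and up to 2 further genes with the largest IL-1β ratios, and for each of the 9 the 3 nearest genes, some of which are not reported here. Genes counted only between day 3 and 1 h were too many to name. Gata3, Il2ra, Jak1, Hba-a1, Pf4, Ppbp, Ms4a1, H2-Aa and Rn45s were chosen for naming after seeing their values. Alternatives were pseudocounts of 0.1 and 5, other filters, 2 scalings, a 1.5-fold rule, the length trend, and, for limma, equal medians, an intensity trend and leaving out a stage.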

Additional observations from a re-analysis of the deposited data

Results flagged for a closer look

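Stat6 stood apart from the other 8 genes in that its 2 poly(A) pairs of libraries pointed in opposite directions with intervals that did not overlap in either: lower with IL-1β at day 3 and higher in vivo. The log2 ratio in vivo minus that at day 3 was 1.18. The difference was not tested, since each arm is 1 library at each stage, and 136 of 7700 genes (1.77%) showed opposite directions in the same way.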

How the results depend on the processing

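No paired analysis was possible because each group is 1 library and the labels carry no replicate numbers; for the same reason no replicate could be left out. With a 1.5-fold rule 1 gene was counted lower with IL-1β at day 3 (Stat6), 1 higher in vivo (Socs3) and 4 higher from day 3 to in vivo with IL-1β (Stat2, Stat5b, Stat6 and Socs3), against 9.24%, 8.81% and 19.2% of tested genes in those directions. With intervals apart at any fold these became 3, 2 and 6, with 1 lower in vivo (Socs1), and 1 lower from day 3 to in vivo in each arm (Socs1 with IL-1β, Cish without). With equal upper quartiles 3 were higher from day 3 to in vivo with IL-1β (Stat2, Stat6 and Socs3), against 17.0% of tested genes.

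From 1 h to day 3 the direction of 5 genes depended on the scaling, whose construction removes the common shift. With equal upper quartiles, the length trend removed or the median scaled to 1, 2 of 9 genes were higher in each arm (Socs1 and Cish). Of all genes that still reached 5 FPKM, 43.1% to 58.2% were higher across these settings and arms. Any of the 9 below 5 FPKM in both libraries after scaling could not be counted. With IL-1β 3, 1 and 3 of the 9 were lower in that order of settings, against 12.4%, 10.7% and 11.2% of tested genes. Without it 1 was lower with the length trend removed (7.55% of tested genes) and 1 with the median scaled (7.34%). In limma with equal medians 2 were higher and 1 lower, with changes of -1.52 (Socs3), -0.95 (Stat3), -0.58 (Stat4), -0.88 (Stat5b) and -0.16 (Stat6). With IL-1β the ratios under quartiles, length and median were -1.23, -1.25 and -1.16 for Socs3, -1.08, -0.24 and -1.01 for Stat3, and -1.07, -0.42 and -1.003 for Stat5b. Under quartiles and median they were -0.0947 and -0.0388 for Stat4 and -0.149 and -0.0876 for Stat6. Without IL-1β Socs3 had -0.98, -1.37 and -1.21, Stat3 had -0.0729 (quartiles) and -0.32 (median), Stat4 had -0.20 (length) and -0.17 (median), and Stat5b had -0.0809 (median).

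Over all genes limma called 34 for IL-1β without the 1 h stage, against 0 with it, and none of the 9 in either. From day 3 to in vivo it called 8 to 408 genes across the alternatives, against 202, and none of the 9, whose smallest adjusted p across them was 0.192 (pseudocount 5). Depth is unknown, and the median half-width of the intervals at 1 h was 69.9% and 42.1% of the FPKM without and with IL-1β.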
